A study of Mus musculus with 4 samples.

Results

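The BMP and PDGF signals of villus formation were followed here as 10 genes: the ligands Bmp2, Bmp4 and Bmp7, the receptor Bmpr1a, the response genes Id1, Id2, Id3 and Smad6, and the ligand and receptor pair Pdgfa and Pdgfra. Every probe set of the array whose only annotated symbol was among these was taken, which gave 22 probe sets for the 10 genes, of 18193 genes with such a probe set. RNA came from Yy1 knockout embryos (Yy1f/f; Shh-Cre) and from their WT littermates (YY1f/f), both at E15.5, with 2 arrays per genotype and up to 2 embryos pooled per array. Both genotypes carried floxed Yy1 alleles. Only the knockout carried Shh-Cre, which is active in gut endoderm, so what the loss of Yy1 does and what the Cre transgene does cannot be told apart. The cells were Epcam-positive, bound magnetically from tissue labelled small intestine that was taken between the proximal stomach and the distal caecum. The comparison asks how signals that pass between epithelium and mesenchyme differ when Yy1, a zinc finger transcription factor, is deleted in the epithelium.

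Villi rise from the flat fetal gut when clusters of mesenchymal cells gather beneath the epithelium. The epithelium sends Hedgehog and PDGF-A ligands, and the mesenchymal clusters, which carry the PDGF receptor alpha, answer with BMP ligands, which help to set the spacing of villi. BMP ligands bind paired type I and type II receptors, which phosphorylate Smad1, Smad5 and Smad9. With Smad4 these switch on response genes such as the Id genes and Smad6, which inhibits the same receptors.

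The RefSeq start sites (GRCm38.p6) of the ligands Bmp4 and Pdgfa and of the response genes Smad6 and Id2, which passed the test and have a RefSeq window, are shown as windows of 250 bases before and 50 bases after the start, read along the gene's strand. They lie at chr14:46390620-46390919 for Bmp4, chr9:64022010-64022309 for Smad6 and chr12:25096043-25096342 for Id2. Those of Pdgfa lie at chr5:138994895-138995194 for its upstream start and chr5:138994232-138994531 for its downstream start. All are on the minus strand, and capitals mark motif matches.
Bmp4: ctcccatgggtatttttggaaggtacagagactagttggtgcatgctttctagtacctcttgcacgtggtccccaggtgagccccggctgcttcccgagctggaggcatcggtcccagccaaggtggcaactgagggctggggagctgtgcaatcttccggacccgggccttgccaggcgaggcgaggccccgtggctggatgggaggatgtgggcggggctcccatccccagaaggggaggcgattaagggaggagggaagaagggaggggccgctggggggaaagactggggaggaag
Smad6: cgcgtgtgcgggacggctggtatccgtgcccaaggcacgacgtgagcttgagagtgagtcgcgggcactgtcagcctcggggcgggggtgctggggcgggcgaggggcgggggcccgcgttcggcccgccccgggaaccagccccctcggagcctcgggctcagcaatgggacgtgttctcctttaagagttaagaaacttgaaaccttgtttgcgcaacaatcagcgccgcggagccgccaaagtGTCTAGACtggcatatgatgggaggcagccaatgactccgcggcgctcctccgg
Id2: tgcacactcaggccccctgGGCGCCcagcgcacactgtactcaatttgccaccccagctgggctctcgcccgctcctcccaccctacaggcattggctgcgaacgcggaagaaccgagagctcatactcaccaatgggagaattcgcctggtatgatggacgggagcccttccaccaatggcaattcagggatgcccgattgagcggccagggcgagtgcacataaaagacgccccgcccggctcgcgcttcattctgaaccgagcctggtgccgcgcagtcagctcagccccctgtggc
Pdgfa upstream start: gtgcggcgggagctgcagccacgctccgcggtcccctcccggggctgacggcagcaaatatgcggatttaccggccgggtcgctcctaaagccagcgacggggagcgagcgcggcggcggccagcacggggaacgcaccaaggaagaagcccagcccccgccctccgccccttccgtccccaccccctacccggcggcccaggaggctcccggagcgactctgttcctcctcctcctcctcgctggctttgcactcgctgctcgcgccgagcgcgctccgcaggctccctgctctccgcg
Pdgfa downstream start: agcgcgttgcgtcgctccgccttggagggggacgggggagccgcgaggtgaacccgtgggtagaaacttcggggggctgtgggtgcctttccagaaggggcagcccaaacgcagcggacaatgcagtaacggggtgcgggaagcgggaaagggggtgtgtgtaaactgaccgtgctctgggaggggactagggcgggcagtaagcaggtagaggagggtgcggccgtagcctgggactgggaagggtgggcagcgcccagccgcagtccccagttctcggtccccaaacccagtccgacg

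RefSeq windows were at hand for 7 of the 10 genes, 8 windows in all, and 4 motifs were searched on both strands. The YY1 core (GCCATNTT), found in 6.05% of 32851 mouse windows of the same length, had no match in the 8. The GC-rich Smad1 element (GGCGCC, 11.9% of windows) matched in Id2 and in Bmpr1a. The Smad box (GTCTAG, 8.37% of windows) matched in Smad6 on both strands, as a palindrome that spans the start site from base -4. The TATA box (TATAAA, 13.6% of windows) had no match. No match overlapped one of another motif. A match is a run of letters and not a shown site.

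The arrays fitted their labels at the Yy1 gene. The brightest Yy1 probe set had log2 values of 7.27 and 6.81 in the knockout, against 8.79 and 8.82 in WT, and fell by 1.77 (SE 0.17, limma adjusted p = 0.00209). Without WT replicate 2 this change was -1.76 with adjusted p = 0.0504. Where that probe set lies relative to the deleted part of Yy1 was not established here. Epcam RNA was bright in all samples, at 11.01 and 11.15 in the knockout and 11.50 and 11.54 in WT. Array medians lay between 2.83 and 2.89, and Pearson's r over 16887 probe sets was 0.989 within the knockout, 0.990 within WT and 0.905 to 0.925 across genotypes. All values are log2 intensities made by the authors with GCRMA, and each change is the knockout mean minus the WT mean. The lowest value on every array was 2.358, called the floor here. A probe set was tested when at least 2 of the 4 arrays reached a log2 value of 4.

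Of the 10 genes, 9 had a tested probe set, and by the brightest of these Bmp4, Bmp7, Bmpr1a and Pdgfa were higher in the knockout, Bmp2, Smad6 and Id2 were lower, and Id1 and Id3 did not pass an adjusted p of 0.05. Changes were common on these arrays: of all 8626 genes tested, 39.6% passed, 17.9% higher and 21.7% lower. Bmp2, Bmp4, Bmp7 and Smad6 were under the filter on both arrays of 1 genotype. Their direction and lack of overlap were thus fixed once they were tested. The 5 genes without that limit were Bmpr1a, Id1, Id2, Id3 and Pdgfa, of which 3 passed, where 35.5% of all such genes did (15.2% higher and 20.3% lower). Across the 22 probe sets, 14 were tested, of which 6 were higher, 3 lower and 5 did not pass, beside 37.1% of all 16887 tested probe sets that passed, 17.1% higher and 20% lower. Without the filter on low values, Bmp4 alone of the 10 genes passed (adjusted p = 0.0328).

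**Figure D1:**
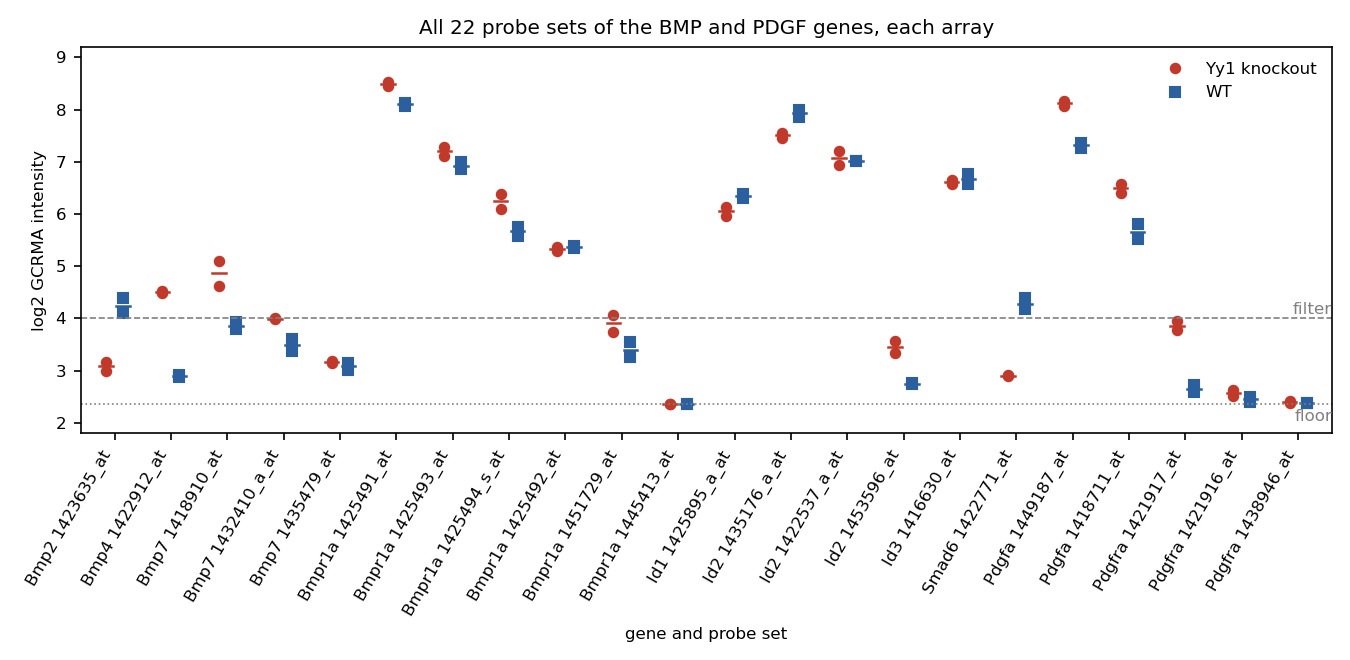
Each point is the log2 GCRMA intensity of 1 array, for each of the 22 probe sets along the horizontal axis, with Yy1 knockout as circles and WT as squares. Short bars are means of 2 arrays, the dashed line is the filter at 4 and the dotted line the floor at 2.358. Bmp4 and Bmp7 cross the filter upward in the knockout, while Bmp2 and Smad6 lie above it in WT alone.

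Tested markers of mesenchyme and smooth muscle were higher in the knockout, where 17.9% of all tested genes were higher. Of 10 mesenchyme markers, Pdgfrb among them, 8 were tested and all 8 rose, by 0.98 to 2.68, 4 of them dim on both WT arrays, and the summed linear level of the list was 2374 and 2144 in the knockout and 725 and 594 in WT. All 6 tested smooth muscle markers rose, by 2.93 to 3.43, 1 of them dim on both WT arrays, with sums of 2366 and 2421 in the knockout and 322 and 200 in WT. The mesenchyme markers Thy1 and Twist1 were at the floor on all arrays. Bulk arrays cannot tell more cells of a type from more RNA per cell. Whether mesenchymal RNA in the samples had a part in the values of Bmp4, Pdgfra, Pdgfrb, Foxf1, Fstl1, Wnt5a, Ptch1 and Smo was not tested.

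The other marker lists were mixed. Of 8 epithelial markers 1 rose, 4 fell and 3 did not pass, with a median of -0.39 and sums of 8188 and 8785 in the knockout and 9909 and 10435 in WT. All 3 tested of 5 leukocyte markers rose, of which Csf1r and Cd68 were dim on both WT arrays, with sums of 139 and 168 in the knockout and 54.4 and 52.0 in WT. Both tested of 5 erythroid markers rose, of which Hba-x was dim on both WT arrays, with sums of 1026 and 910 in the knockout and 72.1 and 90.9 in WT. No endothelial or enteric neural marker was tested, with sums of 29.5 and 27.3 in the knockout and 27.2 and 26.6 in WT for endothelium, where Pecam1, Kdr and Tek were at the floor, and 51.4 and 40.5 in the knockout and 32.1 and 28.4 in WT for neurons and glia. Of 4 mesothelial markers only Upk3b was tested and fell by 2.39, with sums of 52.7 and 51.3 in the knockout and 183 and 230 in WT, while Wt1 and Lrrn4 were at the floor.

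**Figure D2:**
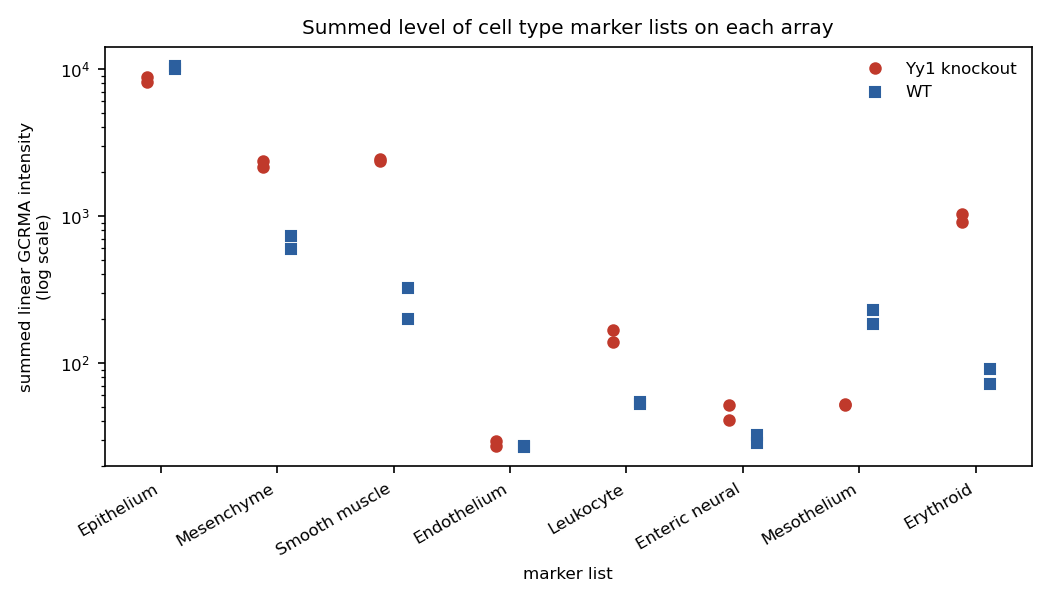
Each point is the sum of linear GCRMA intensities over a marker list on 1 array, on a log axis, with Yy1 knockout as circles and WT as squares. Mesenchyme, smooth muscle, leukocyte, erythroid, enteric neural and endothelial sums are higher on both knockout arrays than on both WT arrays, the endothelial ones slightly. Epithelial and mesothelial sums are lower. No endothelial or enteric neural marker was tested.

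The 3 BMP ligands differed in direction, and for each of them the filter left only 1 direction open. Bmp4, which in the fetal gut is known from the mesenchyme under the epithelium, had log2 values of 4.52 and 4.49 in the knockout and 2.89 and 2.92 in WT. Arrays of 1 genotype were nearly alike. The log2 change was 1.60 (SE 0.10, 95% interval 1.35 to 1.85, limma adjusted p = 0.000928). Only a rise without overlap was possible for Bmp4, since both WT arrays were dim. The authors' deposited table lists this Bmp4 probe set at 1.60 with adjusted p = 0.000294.

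Bmp2, a ligand of the same subgroup as Bmp4 that is made in part by gut epithelium, ran the other way. Its values were 3.004 and 3.173 in the knockout and 4.10 and 4.39 in WT. Bmp2 fell by 1.16 (SE 0.14, limma adjusted p = 0.00383). Both knockout arrays were dim, so only a fall without overlap was possible. The authors' deposited table lists it at -1.16 with adjusted p = 0.00193. Without WT replicate 2 the Bmp2 change was -1.01 and did not pass (adjusted p = 0.0505).

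Bmp7, a ligand of another BMP subgroup that can pair with Bmp2 or Bmp4, was higher on its brightest probe set. The knockout arrays had 5.10 and 4.63, and the WT arrays 3.80 and 3.93. The knockout arrays differed by more than the WT arrays, and the rise was 0.999 on the log2 scale (SE 0.18, limma adjusted p = 0.0113). Both WT arrays were dim, so only a rise without overlap was possible. A further Bmp7 probe set, 1432410_a_at, fell just short of the filter at 3.996 and 4.003 in the knockout, against 3.39 and 3.61 in WT, and was not tested. The remaining Bmp7 probe set, 1435479_at, had overlapping values of 3.19 and 3.15 in the knockout and 3.01 and 3.15 in WT. The Bmp7 call ended without WT replicate 1 (log2 change 0.94, adjusted p = 0.0978) and without WT replicate 2 (1.06, adjusted p = 0.0932). With 16 added before log2, which damps dim values, the changes were 0.72 for Bmp4, -0.52 for Bmp2 and 0.57 for Bmp7, and all passed.

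Of 12 other BMP family ligands, none had a tested probe set. Bmp5, a ligand of the Bmp7 subgroup, had 3.90 and 3.27 in the knockout and 2.50 and 2.49 in WT. Bmp1, which is a protease despite its name, had 3.25 and 4.24 in the knockout, and 3.29 and 3.17 in WT. Bmp8a, Bmp10, Bmp15, Gdf2 and Gdf5 stayed within 0.1 of the floor on every array.

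The type I BMP receptor Bmpr1a was read by 6 probe sets, which did not move alike. The brightest, 1425491_at, had 8.45 and 8.53 in the knockout and 8.08 and 8.13 in WT, a 1.31-fold rise (log2 0.39, SE 0.10, limma adjusted p = 0.0361). On 1425494_s_at the values were 6.38 and 6.10 in the knockout and 5.59 and 5.75 in WT, a log2 change of 0.57 (SE 0.14, adjusted p = 0.0275). Neither of these pairs overlapped. On 1425493_at the knockout had 7.29 and 7.12 and WT had 6.854 and 7.005, a difference of 0.28 that did not pass (95% interval -0.03 to 0.58, adjusted p = 0.129). On 1425492_at the values overlapped at 5.38 and 5.29 in the knockout and 5.39 and 5.34 in WT, a difference of -0.04 (95% interval -0.30 to 0.23, adjusted p = 0.810). Of the untested pair, 1451729_at had 4.06 and 3.75 in the knockout and 3.25 and 3.55 in WT, and 1445413_at sat at the floor. The Bmpr1a call was lost without WT replicate 1 (log2 change 0.36, adjusted p = 0.139), WT replicate 2 (0.41, 0.125), knockout replicate 1 (0.42, 0.0841) or knockout replicate 2 (0.35, 0.130). It was also lost with the replicate number as a block (adjusted p = 0.0713) and when all tested probe sets were averaged (0.30, adjusted p = 0.0626). In all, the Bmpr1a call was lost under 10 of 16 alternatives.

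Among other BMP receptors and co-receptors, 5 of 9 listed genes were tested, with 1 higher, 1 lower and a median log2 change of 0.06. The median of all tested genes was -0.03, and 39.6% of them passed. Rgmb, a BMP co-receptor of the repulsive guidance family, had 5.86 and 5.96 in the knockout and 4.92 and 4.60 in WT (log2 change 1.15, SE 0.14, limma adjusted p = 0.00392). Its 3 other tested probe sets were dim on both WT arrays, so they could only rise, and did so by 0.769 to 1.007. Acvr2b, a type II receptor that also serves activins, had 4.39 and 4.28 in the knockout and 5.15 and 5.17 in WT (-0.82, SE 0.10, adjusted p = 0.00419). Bmpr2, the main type II receptor for BMP, had a difference of 0.06 on its brightest probe set (adjusted p = 0.727), while a dimmer one rose by 0.44 (adjusted p = 0.0217). Acvr1, a further type I receptor, differed by 0.32 (adjusted p = 0.0806, and 0.36 with adjusted p = 0.0496 after median centring), and Acvr2a by -0.02 (adjusted p = 0.902, and 0.01 or 0.06 after median centring or quantile normalization).

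**Figure D3:**
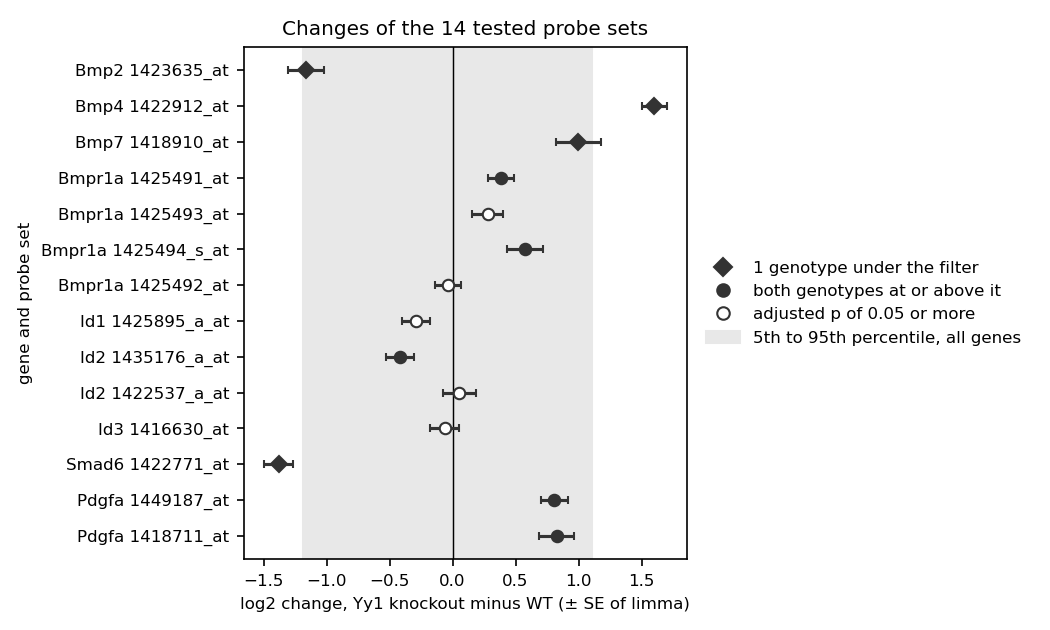
Points are log2 changes, Yy1 knockout minus WT, of the 14 tested probe sets, with bars for the standard error of limma. Filled symbols passed an adjusted p of 0.05, diamonds mark probe sets dim in both arrays of 1 genotype, and the grey band holds the 5th to 95th percentile of all tested genes (-1.19 to 1.11). Bmp4 lies above the band and Smad6 below it, and the Id probe sets lie between -0.42 and 0.05.

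Of the 4 response genes among the 10, Smad6 and Id2 were lower and Id1 and Id3 did not pass. For comparison, 39.6% of all tested genes passed, and 21.7% were lower. Smad6, the inhibitory Smad that BMP itself induces, had 2.89 and 2.91 in the knockout, against 4.38 and 4.18 in WT. The knockout arrays were nearly alike. Smad6 fell by 1.38 (SE 0.12, 95% interval -1.68 to -1.09, limma adjusted p = 0.00156), the only direction open to it, as both knockout arrays were dim. The authors' deposited table lists Smad6 at -1.38 with adjusted p = 0.000635. With 16 added before log2, its change was -0.60 (adjusted p = 0.00459). Of the 8 windows searched, its start site was the one that held the Smad box.

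The Id proteins bind basic helix-loop-helix factors and keep them off DNA. Id1 had 6.14 and 5.97 in the knockout and 6.38 and 6.31 in WT. The genotypes did not overlap, but the difference of -0.29 did not pass (SE 0.11, 95% interval -0.57 to -0.005, unadjusted p = 0.0474, limma adjusted p = 0.0999). Id3 overlapped, at 6.65 and 6.57 in the knockout and 6.76 and 6.58 in WT, with a difference of -0.06 (95% interval -0.36 to 0.23, adjusted p = 0.696) that was 0.01 after quantile normalization.

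Id2 gave different answers on its probe sets. The brightest, 1435176_a_at, had 7.56 and 7.46 in the knockout and 7.855 and 7.998 in WT, a 1.33-fold fall (log2 -0.42, SE 0.11, limma adjusted p = 0.0366). On 1422537_a_at the values were 6.93 and 7.21 in the knockout and 7.02 and 7.02 in WT, which overlapped, with a difference of 0.05 (95% interval -0.27 to 0.38, adjusted p = 0.771). The dim 1453596_at was higher in the knockout, at 3.35 and 3.56 against 2.74 and 2.76 in WT, and was not tested. The Id2 call was lost without WT replicate 1 (log2 change -0.49, adjusted p = 0.0896), WT replicate 2 (-0.34, 0.169), knockout replicate 1 (-0.46, 0.0930) or knockout replicate 2 (-0.37, 0.149). It was also lost with the replicate block (adjusted p = 0.0744), after quantile normalization (-0.32, adjusted p = 0.0568) and over the mean of its tested probe sets (-0.18, adjusted p = 0.198). In all, the Id2 call was lost under 10 of 16 alternatives.

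Of 7 other BMP response genes, 2 were tested and moved apart. Id4, the fourth member of the Id family, had 6.90 and 7.89 in the knockout and 5.95 and 5.77 in WT (log2 change 1.53, SE 0.32, limma adjusted p = 0.0181), and its other tested probe sets, which were dim on both WT arrays and could only rise, had changes of 1.66 and 2.01. The T-box repressor Tbx3 had 4.58 and 4.90 in the knockout, against 5.86 and 6.20 in WT (-1.29, SE 0.17, adjusted p = 0.00502). The homeobox genes Msx1 and Msx2, common readouts of BMP in mesenchyme, were within 0.1 of the floor on every array. Among the E proteins that Id proteins bind, Tcf4 rose by 1.05 (SE 0.12, adjusted p = 0.00347), while Tcf3 differed by 0.001 (adjusted p = 0.998) and Tcf12 by 0.03 (adjusted p = 0.871). Of 4 dimmer Tcf12 probe sets, 2 rose, 1421908_a_at by 0.37 (adjusted p = 0.0491) and 1439619_at by 0.79 (adjusted p = 0.0114).

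Smads and their regulators had 1 of 8 tested genes higher and 2 lower, with a median of -0.18. Among all tested genes 39.6% passed, 17.9% higher and 21.7% lower. Smad1 and Smad5, which carry the BMP signal, changed in opposite directions. Smad1 had 7.33 and 7.23 in the knockout and 7.77 and 7.83 in WT (-0.52, SE 0.11, limma adjusted p = 0.0157), though its other tested probe set did not pass (-0.33, adjusted p = 0.0667). Smad5 had 6.27 and 6.40 in the knockout and 5.49 and 5.82 in WT (0.68, SE 0.15, adjusted p = 0.0191), though its other tested probe sets did not pass (adjusted p = 0.120 and 0.264). Skil, a corepressor of Smads, fell by 0.80 (SE 0.18, adjusted p = 0.0235). Smad4, the shared partner, had 8.06 on both knockout arrays and 8.24 and 8.27 in WT, a difference of -0.20 that did not pass (adjusted p = 0.180). Smad7, the other inhibitory Smad, had the same value of 4.24 on 3 arrays and 4.56 on WT replicate 2 (adjusted p = 0.407). Whether that repeated value was a background level was not tested.

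Secreted and membrane antagonists of BMP were mostly not measurable. Of 15 listed, 3 were tested, 2 higher and none lower, with a median of 0.50, where 39.6% of all tested genes passed. Fstl1, a secreted follistatin-like protein that can bind BMP4, had 7.48 and 7.22 in the knockout and 5.66 and 5.16 in WT (1.94, SE 0.20, limma adjusted p = 0.00244). Twsg1, which binds BMP together with chordin, rose by 0.50 (SE 0.14, adjusted p = 0.0404). The decoy receptor Bambi differed by 0.03 (adjusted p = 0.840) and by -0.002 after quantile normalization. Noggin (Nog), Chrd, Chrdl2, Fst, Bmper, Nbl1 and Sost stayed within 0.1 of the floor on all arrays. Grem1, known from muscle and fibroblasts of the gut wall, was not tested, with 4.51 and 3.82 in the knockout and 2.52 and 2.46 in WT.

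The PDGF ligand was higher in the knockout, and the gene of its receptor was too dim to be tested. Pdgfa, which gut epithelium makes, had 8.08 and 8.18 in the knockout and 7.37 and 7.27 in WT on its brightest probe set. The genotypes did not overlap and the rise was 1.75-fold (log2 0.81, SE 0.11, 95% interval 0.54 to 1.08, limma adjusted p = 0.00477). The other Pdgfa probe set, 1418711_at, had 6.41 and 6.58 in the knockout and 5.81 and 5.53 in WT, a log2 change of 0.83 (SE 0.14, adjusted p = 0.00969). Both probe sets were bright in both genotypes, so either direction was open. The Pdgfa call ended without WT replicate 2 (log2 change 0.76, adjusted p = 0.0602) and without knockout replicate 2 (0.76, adjusted p = 0.0524).

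Pdgfra, the receptor for PDGF-A and a defining gene of the villus clusters, had no probe set past the filter. On 1421917_at the knockout had 3.95 and 3.78 and WT had 2.58 and 2.72, a difference of means of 1.21 with no overlap. The authors' deposited table lists this probe set at 1.21 with adjusted p = 0.00103. With no filter on low values it did not pass (limma adjusted p = 0.0975). With probe sets chosen by interquartile range it passed (limma adjusted p = 0.000936), but the genotype difference itself largely decides that choice. The other Pdgfra probe sets lay near the floor, 1421916_at at 2.62 and 2.52 in the knockout and 2.50 and 2.40 in WT, and 1438946_at at 2.42 and 2.39 in the knockout and 2.39 and 2.39 in WT.

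Of the 5 other PDGF genes, 2 were tested. Pdgfrb, the receptor of pericytes and fibroblasts, had 5.03 and 4.64 in the knockout and 2.94 and 3.09 in WT (1.82, SE 0.16, limma adjusted p = 0.00173), where only a rise was possible. The ligand Pdgfc differed by -0.11 (adjusted p = 0.503). Pdgfb, Pdgfd and Pdgfrl reached at most 3.002 on any array.

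Both Hedgehog ligands of the epithelium were lower in the knockout. Shh had 5.55 and 5.36 in the knockout and 7.42 and 7.38 in WT, and fell by 1.95 (SE 0.11, limma adjusted p = 0.000812). In the Shh-Cre line in common use Cre is inserted into Shh itself, and the labels do not say which line this was. Ihh had 3.73 and 4.10 in the knockout and 5.52 and 5.59 in WT (-1.64, SE 0.15, adjusted p = 0.00190). The receptor Ptch1, a gene that Hedgehog induces, rose by 0.56 (SE 0.11, adjusted p = 0.0127), though its other tested probe set did not pass (0.22, adjusted p = 0.165). The signal transducer Smo rose by 0.83 (SE 0.12, adjusted p = 0.00552). Hhip and Gli1, also listed, were too dim to be tested. Hhip had 3.22 and 3.70 in the knockout and 3.11 and 3.15 in WT. Gli1 had 2.83 and 2.63 in the knockout and 2.50 and 2.38 in WT. Of 5 listed factors of the villus mesenchyme, 2 were tested and both were higher. Among all tested genes, 17.9% were higher and 21.7% lower. Foxf2, Foxl1 and Nkx2-3 were not tested. Foxf2 had 3.89 and 4.32 in the knockout and 2.97 and 2.74 in WT. Foxl1 had 2.59 and 2.55 in the knockout and 2.55 and 2.51 in WT. Nkx2-3 had 2.97 and 2.86 in the knockout and 2.96 and 2.84 in WT, and both of these overlapped. Foxf1, a Hedgehog-induced forkhead factor, had 5.34 and 4.94 in the knockout and 2.92 and 2.88 in WT (2.24, SE 0.16, adjusted p = 0.00109). Wnt5a rose by 1.23 (SE 0.21, adjusted p = 0.0102), and for both genes only a rise was possible.

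**Figure D4:**
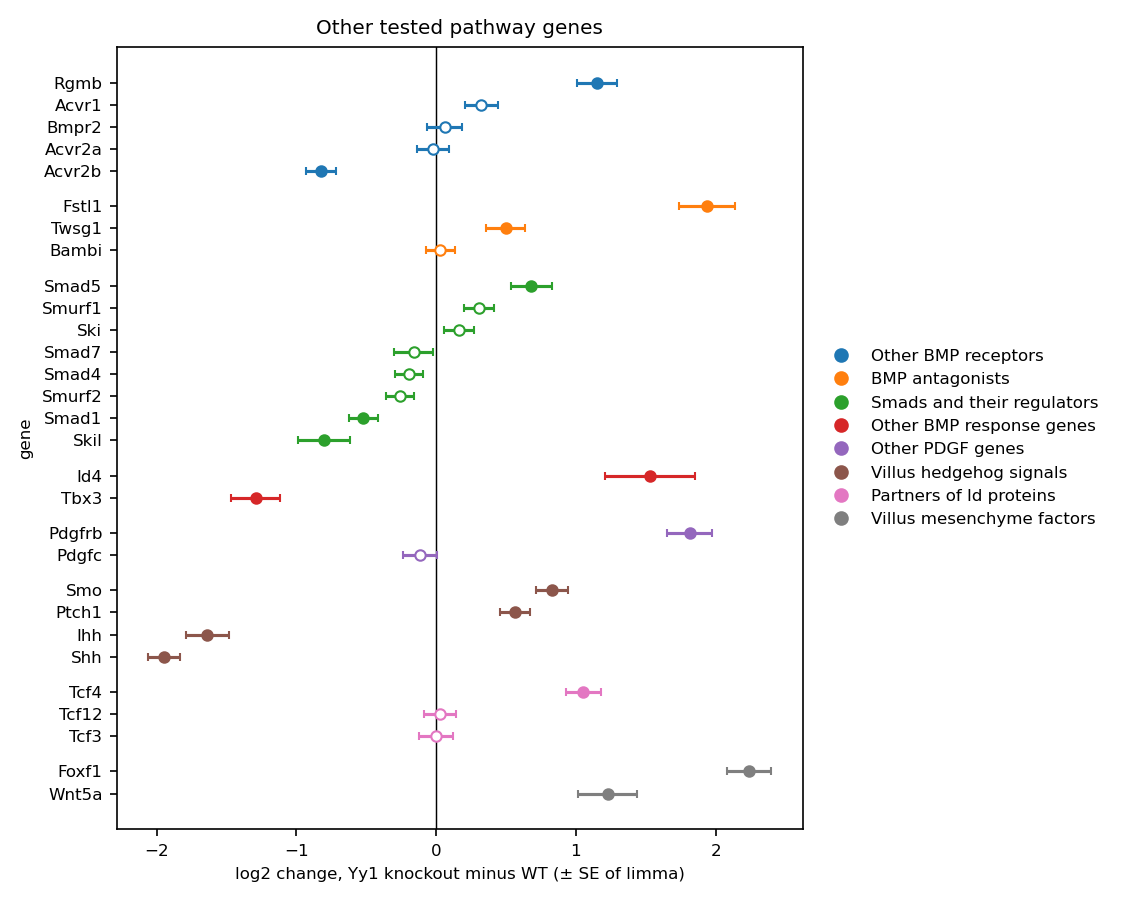
Each point is the log2 change, Yy1 knockout minus WT, of 1 of the 29 tested genes from the other pathway lists, with the standard error of limma as a bar and colours for the list. Filled points passed an adjusted p of 0.05. Foxf1, Fstl1 and Pdgfrb have the largest rises, and Shh and Ihh the largest falls.

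Over the 9 pathway lists, 29 of 72 genes were tested, 11 were higher, 6 lower and 12 did not pass, beside 39.6% of all genes that passed. In 3 of the 11 that were higher, both WT arrays were dim. The calls of Twsg1, Smad1, Smad5, Skil and Ptch1 ended when any of the 4 arrays was left out. Without WT replicate 1 those of Id4 and Wnt5a ended too, 7 of the 17 in all (adjusted p = 0.0667 to 0.188). Without WT replicate 2 those of Acvr2b, Id4, Tbx3, Smo, Tcf4 and Wnt5a ended as well, 11 in all (adjusted p = 0.0568 to 0.151). Without knockout replicate 1 that of Tbx3 also ended, 6 in all (adjusted p = 0.0528 to 0.150). Without knockout replicate 2 those of Rgmb, Smo and Wnt5a also ended, 8 in all (adjusted p = 0.0519 to 0.145). The calls of Fstl1, Pdgfrb, Shh, Ihh and Foxf1 were kept with any 1 array left out. Without the filter on low values none of the 17 passed (adjusted p = 0.0727 to 0.303).

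The genes whose pattern over the 4 arrays was most like that of Bmp4 were sought among 8625 genes, by Euclidean distance after each was centred on its own mean. They were Olfml3 (distance 0.027), Gli3 (0.048), Lmna (0.052), Tgfbi (0.079) and Qsox1 (0.106), on the log2 scale. Olfml3 had 4.19 and 4.17 in the knockout and 2.59 and 2.59 in WT, and Gli3, a transcription factor of Hedgehog signalling, had 4.60 and 4.54 in the knockout and 2.93 and 2.94 in WT. The genes most like Pdgfa were Micall1 (0.039), Bcl9l (0.041), Gkap1 (0.056), Cers4 (0.057) and Tecpr1 (0.062). These distances rest on 4 arrays of 2 genotypes.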

How the data were processed

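Total RNA of 4 samples was hybridised to Affymetrix mouse arrays. The labels' protocols name 10 ug of LPA in the ethanol precipitation. The deposited table held log2 intensities for 45101 probe sets, which the authors obtained with GCRMA, per the submitters' processing notes. The version and settings are not given in the sources used here. The authors' deposited comparison held log2 fold changes, p-values, adjusted p-values and 2 kinds of score, per the file headers. In it, changes ran as knockout minus WT and matched the means of the arrays to within 0.00748. The scores were not used.

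The 64 control probe sets were left out. Of the other 45037, 34945 had 1 symbol in the platform annotation, 932 several and 9160 none listed. All 10 genes matched the RefSeq gene table (GRCm38.p6). Testing was kept to the 16887 probe sets with 2 or more arrays at a log2 value of 4 or above. Knockout minus WT was estimated in R 4.3.3 by the limma functions lmFit and eBayes (version 3.58.1), with genotype as the sole term, and adjusted by Benjamini-Hochberg over all 16887. The fit was also run on simulated data with normal noise and a small share of changed probe sets. Many more passed on these arrays, so that run does not give the error rates here. A gene was represented by its brightest tested probe set. GCRMA may alter the size of changes in dim genes, in a direction that was not tested here. The number of arrays limits the precision.

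Per the deposited design, each array held a separate embryo pool, and p-values reflect variation among such pools. The genes and lists were chosen with earlier results of these data known, and no list was tested as a set. All 10 genes were named on every probe set, and other genes as list members. Same-numbered arrays deviated in opposite directions (r = -0.31 over probe sets), so the replicate number was not taken as a pairing. Alternatives covered the filter, scaling, an offset of 16, the variance model, the replicate block, each array left out, the threshold and the choice of probe sets.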

Additional observations from a re-analysis of the deposited data

How the results depend on the processing

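The calls depended on the number of arrays and on the filter. With 1 array left out, and a genotype's single remaining array taken to vary as the others do, 609 to 1532 probe sets were higher and 754 to 1605 lower, against 2887 and 3381 with all arrays. Of the 10 genes 1 to 3 were then higher and 1 to 2 lower, and of the pathway genes 4 to 8 and 2 to 4. With no filter, 67 probe sets were higher and 81 lower, and Bmp4 alone of the 10 genes passed, so that 1 was higher and 0 lower by limma (3 lower at an unadjusted p under 0.05). No pathway gene passed then, 0 higher and 0 lower (15 and 7 unadjusted). With a filter at log2 of 6, 1521 probe sets were higher and 2246 lower, with 2 and 1 of the 10 genes and 6 and 3 of the pathway genes, since fewer were tested. With a filter on a mean of 4, 1 of the 10 genes was lower, since Bmp2 and Smad6 were no longer tested. At a threshold of 0.01, 1252 probe sets were higher and 1567 lower, 2 of the 10 genes were higher, and 6 pathway genes. Pathway genes that were higher, 11 in the reported fit, numbered 12 after median centring, with Acvr1 added, and 12 over the mean of probe sets, with Tcf12 added (0.36, adjusted p = 0.0495). They numbered 15 with probe sets chosen by interquartile range, a setting added after the data had been seen that the genotype difference itself largely decides.

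With the replicate number as a block, 2380 probe sets were higher and 2828 lower, and the calls of Bmpr1a, Id2 and Twsg1 (adjusted p = 0.0744) ended, while no other call among the 10 genes and the pathway genes changed. The labels do not say that the number pairs arrays. A crossed block, added after the data had been seen, gave 3005 higher and 3518 lower, with 3 of the 10 genes higher and 3 lower. Bmp4 passed under all 14 alternatives that tested it, but most of these kept the same filter, which left only a rise open. Without the filter its limma adjusted p was 0.0328, with an SE of 0.020 from arrays nearly alike within a genotype. Values near 0 changed sign in genes that did not pass: Acvr2a was 0.013 after median centring and 0.058 after quantile normalization, which also gave 0.0061 for Id3 and -0.0018 for Bambi, and Ski was -0.025 over the mean of its probe sets. With 1 array left out, Id3 ranged from -0.16 to 0.029, Bmpr2 from -0.033 to 0.15, Acvr2a from -0.12 to 0.075, Bambi from -0.025 to 0.087, Tcf3 from -0.11 to 0.12 and Tcf12 from -0.071 to 0.13. The cause of these shifts was not tested.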
